A study of Mus musculus with 19 samples.

Results

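Bex1, Tmem171, Csdc2, Lrtm1, Igsf1, Ces1d, Art1 and Xdh are 8 of the 56066 genes in a table of transcript levels from mouse hearts. They were chosen by their measured values: each was picked, with no numerical threshold given, for a large difference between P7 and P21 in wild-type hearts or a large difference in P21 knockout hearts. All 8 had a row in the table, and all 8 were among the 14812 genes kept for testing, those that reached 1 TPM in 3 or more libraries. Ces1d passed that filter only through its P21 libraries. TPM, the share of a gene's transcripts among all transcripts of a library, is a level already corrected for transcript length, so levels of different genes can be set side by side.

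The libraries came from RNA of hearts of wild-type mice (WT) and of mice with a conditional knockout of PDK1 (cKO), and P1, P7 and P21 are days after birth. There were 3 libraries of P1 WT, 5 of P7 WT, 3 of P7 cKO, 4 of P21 WT and 3 of P21 cKO, and no knockout at P1. The labels give P1 for the earliest age, whereas the design text speaks of P0. They do not give the Cre driver, the floxed alleles or the sex, and do not say whether each library was 1 animal, so p-values measure only the spread between these libraries. Titles were of 2 styles, letter codes and plain numbers: all P1 libraries were letter-coded, all cKO libraries plain-numbered, and P7 WT and P21 WT held both styles. The titles of both letter-coded P21 WT libraries carry the code B6 and no other label names a strain, so strain and title style cannot be told apart. PDK1 can name Pdpk1, a kinase that activates AKT, or Pdk1, a kinase that inhibits pyruvate dehydrogenase. Pdpk1 lay at 6.17 to 7.65 TPM in P21 WT and 4.95 to 5.55 TPM in P21 cKO, and at 7.96 to 11.9 TPM in P7 WT and 7.95 to 8.09 TPM in P7 cKO. Pdk1 lay at 24.3 to 29.4 TPM in P21 WT and 31.6 to 37.7 TPM in P21 cKO. Each library held 12422 to 13797 genes at 1 TPM or more, and the cardiomyocyte markers Myh6, Tnnt2, Tnni3, Actc1, Myl2 and Ryr2 summed to 42528 to 52658 TPM in every library.

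In the weeks after birth the mouse heart stops making new muscle cells, turns from glucose and lactate to fatty acids as fuel, and replaces fetal with adult forms of many proteins. Insulin and growth factor signals that pass through PI3K, PDPK1 and AKT support the growth of the muscle cells in that period. The 8 genes are not known as members of a common pathway. Bex1 encodes a small adaptor protein of the BEX and TCEAL family on the X chromosome, best known from neurons. Tmem171 encodes a membrane protein of little-known function. Csdc2 encodes a cold shock domain protein that binds RNA, and Lrtm1 a membrane protein with leucine-rich repeats. Igsf1 encodes an immunoglobulin superfamily membrane protein of the pituitary, loss of which causes central hypothyroidism. Ces1d encodes a carboxylesterase that hydrolyses triglycerides, Art1 an ADP-ribosyltransferase anchored to the muscle cell surface, and Xdh xanthine dehydrogenase, which makes urate at the end of purine breakdown and is common in capillary endothelium.

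The 8 genes fell into 3 patterns. Bex1 and Tmem171 were lower in every P21 WT library than in any P7 WT library, and higher in every P21 cKO library than in any P21 WT library. Csdc2, Lrtm1 and Igsf1 were higher at P21 than at P7 in WT, and lower in every P21 cKO library than in any P21 WT library. Ces1d, Art1 and Xdh were 9.63 to 49.9 times higher at P21 than at P7 in both genotypes. Among these, Art1 was also lower in every P21 cKO library than in any P21 WT library, by a ratio of the means of 1.25. In these contrasts the values chose the genes, so they are given as a description with no test. For comparison, 6.13% of all tested genes had every P21 WT library above every P7 WT library and 54.1% had every one below, and the 8 genes split into 6 above and 2 below. Between the genotypes at P21, 28.5% of tested genes had every cKO library above every WT library and 3.07% had every one below, and the 8 genes split into 2 above, 4 below and 2 overlapping. Both contrasts use the same P21 WT libraries.

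**Figure D1:**
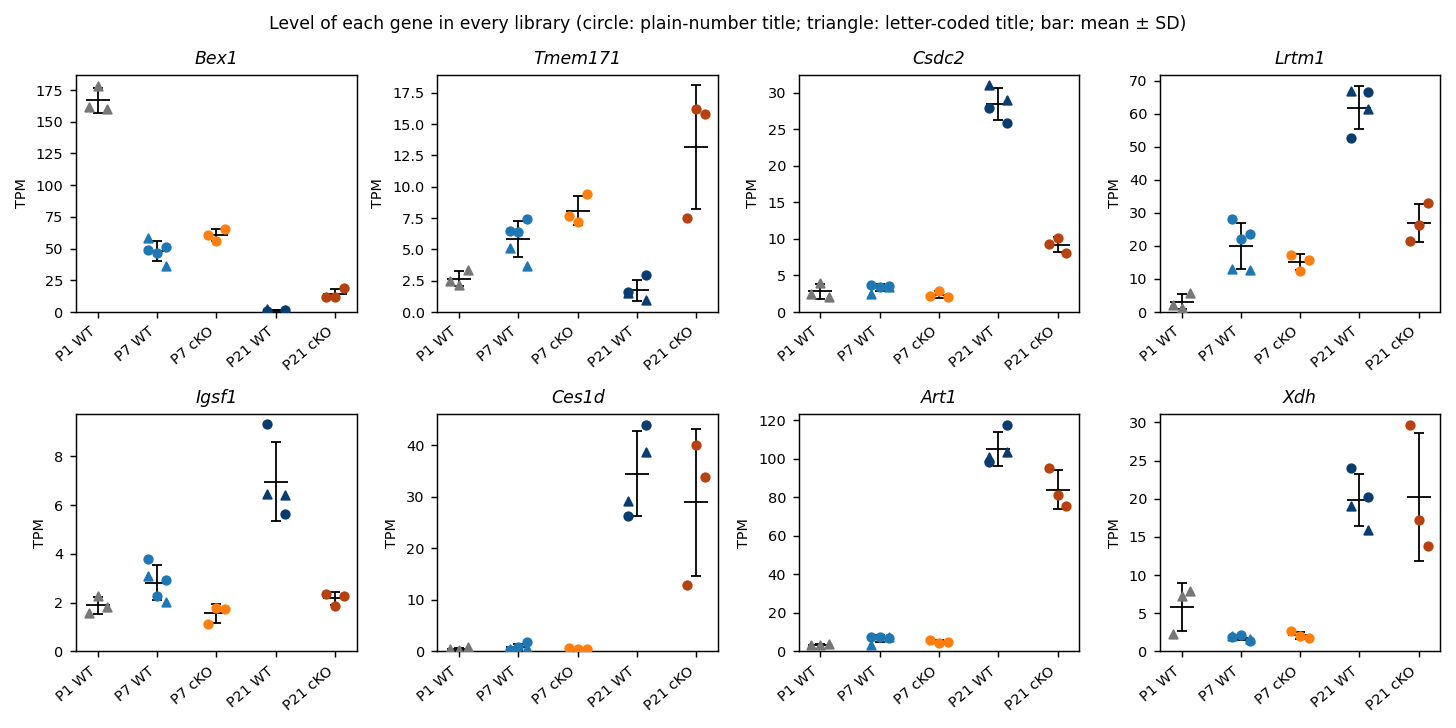
Level in TPM (y axis, from 0) of each of the 8 genes in every library, by group along the x axis; circles are plain-numbered and triangles letter-coded libraries, and bars show mean ± SD. Bex1 steps down from P1 to P21 WT, Ces1d, Art1 and Xdh step up at P21 in both genotypes, and the P21 cKO libraries of Csdc2, Lrtm1 and Igsf1 lie below all P21 WT libraries.

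Bex1 was the most abundant of the 8 at P1. Its P1 WT libraries held 162, 178 and 160 TPM. At P7 WT the letter-coded libraries held 58.2 and 36.6 TPM and the plain-numbered ones 49.3, 46.2 and 51.0 TPM. Every P7 WT library was thus below every P1 library, and the means of 167 ± 9.94 (SD, n = 3) and 48.3 ± 7.88 TPM (SD, n = 5) differed 3.46-fold. At P7 cKO it stood at 61.1, 56.0 and 65.6 TPM, a range that overlapped P7 WT. The P21 WT libraries held 2.13, 1.31, 1.07 and 1.42 TPM, a mean of 1.48 ± 0.456 TPM (SD, n = 4) that was 32.6-fold below P7 WT. The P21 cKO libraries held 11.95, 11.75 and 18.94 TPM, a mean of 14.2 ± 4.09 TPM (SD, n = 3) that was 9.59-fold above P21 WT. Knockout hearts at P21 therefore lay between the P7 and the P21 WT levels, with no overlap on either side. Within the knockout the P21 mean was 4.28-fold below that of P7.

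Tmem171 was a low-level gene with its highest values in P21 cKO. It was at 2.51, 2.15 and 3.35 TPM in P1 WT. In P7 WT it was at 5.13 and 3.68 TPM in the letter-coded and 6.49, 6.37 and 7.43 TPM in the plain-numbered libraries. All 5 P7 WT libraries exceeded the P1 libraries. The P7 cKO libraries held 7.65, 7.21 and 9.43 TPM and overlapped the upper end of P7 WT. At P21 WT it was at 1.51, 0.950, 1.62 and 2.94 TPM, 3.32-fold below P7 WT by the means and overlapping P1. At P21 cKO it was at 7.47, 16.2 and 15.8 TPM, with replicate 55 lowest and the others far above it. The mean of 13.2 ± 4.93 TPM (SD, n = 3) was 7.50-fold above the 1.76 ± 0.843 TPM (SD, n = 4) of P21 WT. P7 cKO and P21 cKO overlapped, so the lower level at P21 in WT was not seen in the knockout libraries.

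Csdc2 had the clearest separation between genotypes among the genes that were higher at P21. It was at 2.53, 3.97 and 2.02 TPM in P1 WT, and at 2.47 and 3.47 (letter-coded) and 3.74, 3.48 and 3.54 TPM (plain-numbered) in P7 WT. P7 cKO held 2.25, 2.87 and 2.0 TPM, and these 3 groups overlapped. At P21 WT it reached 31.0, 29.0, 27.9 and 25.8 TPM, 8.51-fold above P7 WT. At P21 cKO it was at 9.36, 10.1 and 8.08 TPM. The P21 cKO mean of 9.18 ± 1.02 TPM (SD, n = 3) was 3.10-fold below the P21 WT mean of 28.4 ± 2.18 TPM (SD, n = 4) and 3.87-fold above P7 cKO, and lay apart from both.

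Lrtm1 already differed between P1 and P7. The P1 WT libraries held 2.27, 1.28 and 5.62 TPM. At P7 WT the letter-coded libraries held 13.1 and 12.7 TPM and the plain-numbered ones 28.2, 22.1 and 23.7 TPM. The 2 title styles thus did not overlap for this gene at P7, and the P7 cKO libraries, all plain-numbered, held 17.2, 12.5 and 15.9 TPM, below every plain-numbered P7 WT library and 2 of the 3 above both letter-coded ones. At P21 WT it was at 66.7, 61.3, 52.7 and 66.6 TPM, 3.10-fold above P7 WT. At P21 cKO it was at 21.4, 26.4 and 33.1 TPM, a mean of 27.0 ± 5.87 (SD, n = 3) that was 2.29-fold below the 61.8 ± 6.59 TPM (SD, n = 4) of P21 WT. The P21 cKO libraries overlapped P7 WT.

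Igsf1 stayed under 10 TPM in all libraries. It was at 1.58, 2.26 and 1.83 TPM in P1 WT, at 3.10 and 2.04 (letter-coded) and 3.79, 2.26 and 2.94 TPM (plain-numbered) in P7 WT, and at 1.12, 1.80 and 1.75 TPM in P7 cKO. The knockout libraries at P7 were all below the P7 WT libraries. At P21 WT the values were 6.46, 6.42, 9.34 and 5.64 TPM, 2.46-fold above P7 WT. At P21 cKO they were 2.37, 1.87 and 2.28 TPM, a mean of 2.17 ± 0.267 (SD, n = 3) against 6.97 ± 1.63 TPM (SD, n = 4), 3.20-fold lower. P21 cKO overlapped both P1 WT and P7 WT, and the lowest P21 cKO library stood just above the highest P7 cKO library.

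Bex1 and Igsf1 are X-linked, and the sexes were not balanced over the groups. Judged by Xist, which marks the inactive X, against the Y-linked Ddx3y, Xist was the higher in 3 of 3 P1 WT, 2 of 5 P7 WT, 2 of 3 P7 cKO, 2 of 4 P21 WT and 2 of 3 P21 cKO libraries. Replicate 3 of P1 WT held both, with Ddx3y at 3.77 TPM and Xist at 18.4 TPM, whereas Ddx3y was at most 0.03 TPM in every other Xist-high library. Igsf1 was at 2.04 to 2.26 TPM in the Xist-high and 2.94 to 3.79 TPM in the Ddx3y-high P7 WT libraries, and at 5.64 to 6.42 and 6.46 to 9.34 TPM in those of P21 WT. Bex1 was at 36.6 to 46.2 TPM in the Xist-high and 49.3 to 58.2 TPM in the Ddx3y-high P7 WT libraries. At P21 the patterns overlapped for Bex1, at 1.31 to 1.42 TPM in the Xist-high and 1.07 to 2.13 TPM in the Ddx3y-high WT libraries, and at 11.75 to 18.94 TPM in the Xist-high and 11.95 TPM in the Ddx3y-high cKO libraries. In P21 cKO, Igsf1 was at 1.87 to 2.28 TPM in the Xist-high libraries and 2.37 TPM in the Ddx3y-high one. The part of sex in the genotype difference of Igsf1 was not tested. At P7 the Ddx3y-high cKO library held 1.75 TPM of Igsf1 and the Xist-high ones 1.12 to 1.80 TPM.

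Ces1d was at a very low level before P21. It was at 0.380, 0.340 and 0.760 TPM in P1 WT, at 0.530, 0.610, 0.220, 0.910 and 1.91 TPM in P7 WT, and at 0.670, 0.520 and 0.550 TPM in P7 cKO, and these ranges overlapped. At P21 WT it reached 29.1, 38.8, 26.2 and 44.0 TPM, 41.3-fold above P7 WT. At P21 cKO it was at 12.9, 40.1 and 33.8 TPM, 49.9-fold above P7 cKO. The P21 genotypes overlapped, with replicate 55 of the cKO lowest of the 7 P21 libraries. Their means were 34.5 ± 8.26 TPM (SD, n = 4) and 28.9 ± 14.2 TPM (SD, n = 3).

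Art1 had the highest P21 level of the 8. It was at 3.56, 3.19 and 3.65 TPM in P1 WT, at 3.34 and 7.31 (letter-coded) and 7.71, 7.66 and 7.18 TPM (plain-numbered) in P7 WT, and at 6.04, 4.35 and 5.01 TPM in P7 cKO. Replicate 1 of P7 WT was level with P1, and the other P7 WT libraries were above P1 and P7 cKO. At P21 WT it was at 101, 103, 98.3 and 118 TPM, 15.8-fold above P7 WT. At P21 cKO it was at 95.4, 81.3 and 75.5 TPM, 16.4-fold above P7 cKO. The P21 cKO libraries were all below the P21 WT libraries, by a ratio of the means of 1.25, the smallest genotype gap among the 4 genes with no overlap in that direction.

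Xdh was the only one of the 8 whose WT mean was lowest at P7. The P1 WT libraries held 2.25, 7.19 and 7.97 TPM, the P7 WT libraries 1.99, 1.56, 1.92, 2.16 and 1.37 TPM, and the P7 cKO libraries 2.62, 1.98 and 1.70 TPM. All P7 WT libraries lay below the P1 libraries, though P1 replicate 1 was close to them. At P21 WT it was at 19.1, 15.9, 24.1 and 20.2 TPM, 11-fold above P7 WT. At P21 cKO it was at 29.7, 17.2 and 13.8 TPM, 9.63-fold above P7 cKO. The P21 genotypes overlapped, and their means of 19.8 ± 3.37 TPM (SD, n = 4) and 20.2 ± 8.37 TPM (SD, n = 3) differed by a ratio of 1.02.

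To set the genes against the rest of the transcriptome, differences were fitted with limma on log2(TPM + 1) over all 18 grouped libraries, with title style as a term. The median gene was itself lower at P21 than at P7, by a log2 change of -0.47 in WT and -0.24 in cKO, and 0.22 higher in P21 cKO than in P21 WT, so log2 changes of the 8 genes in these contrasts are given relative to the median gene. From P7 to P21 in WT they were 4.80 ± 0.29 (SE) for Ces1d, 4.34 ± 0.15 for Art1, 3.37 ± 0.26 for Xdh, 3.24 ± 0.14 for Csdc2, 2.16 ± 0.26 for Lrtm1 and 1.54 ± 0.15 for Igsf1. Those of Tmem171 and Bex1 were -0.80 ± 0.20 and -3.85 ± 0.15. Of all tested genes, 0.0203% had a relative change as large as that of Ces1d and 15.6% one as large as that of Tmem171. The values of this contrast took part in choosing the genes, so these shares are a description only. Lrtm1 depended on the title style here: its unshifted change was 2.23 in letter-coded and 1.24 in plain-numbered libraries alone. In this contrast 72.5% of the tested genes had an adjusted p under 0.05 in either direction.

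The same interval in the knockout shares no library with the WT interval. The relative log2 changes there were 4.35 ± 0.35 for Ces1d, 4.04 ± 0.19 for Art1 and 2.96 ± 0.32 for Xdh, a little below the WT values. Unshifted they were 4.10, 3.80 and 2.72, against 4.32, 3.87 and 2.90 in WT. That order depended on the measure. By ratio of the means the change was larger in the knockout for Ces1d (49.9 against 41.3) and Art1 (16.4 against 15.8). For Xdh it was smaller (9.63 against 11.0). The relative changes were 1.84 ± 0.17 for Csdc2, 1.02 ± 0.31 for Lrtm1 and 0.56 ± 0.18 for Igsf1, all below the WT values. For Lrtm1 the gap was smaller in plain-numbered libraries alone. There its unshifted change was 0.78 in cKO and 1.24 in WT, against 1.69 in WT over all libraries. The difference between the intervals was not tested, since it rests on the libraries that chose the genes. Tmem171 was at 0.82 ± 0.24, of opposite sign to WT, and Bex1 at -1.81 ± 0.18. Counted by libraries, 6 of the 8 genes had every P21 cKO library above every P7 cKO library, against 12.7% of tested genes, 1 had every library below, against 47.8%, and Tmem171 overlapped. In this contrast 48.4% of tested genes passed the limma threshold. Since the P21 cKO libraries took part in the choice of the genes, no p is given for it.

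**Figure D2:**
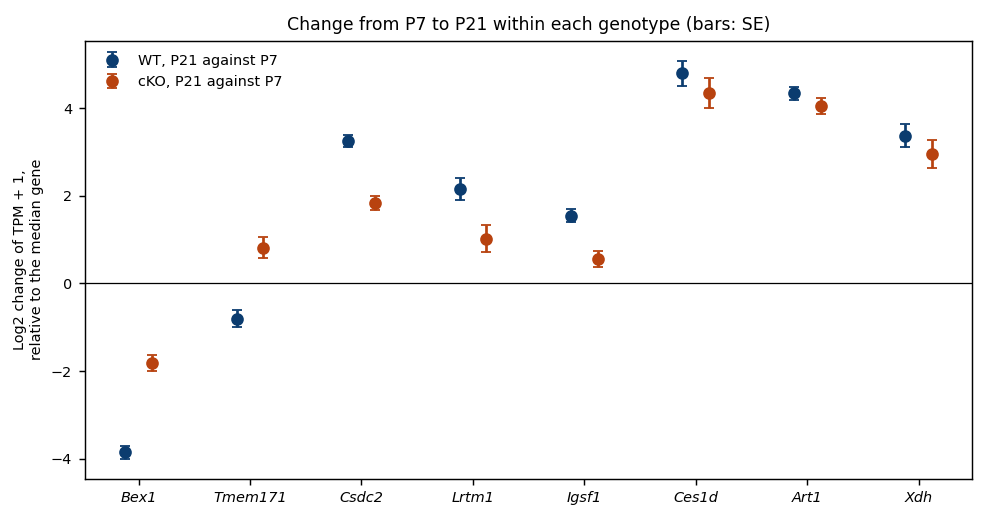
Log2 change of TPM + 1 from P7 to P21 relative to the median gene (y axis) for each gene (x axis), in WT (blue) and cKO (orange), with bars for the SE. Ces1d, Art1 and Xdh lie at 2.96 to 4.80 in both genotypes, Csdc2, Lrtm1 and Igsf1 are closer to 0 in cKO, and Tmem171 lies below 0 in WT and above 0 in cKO.

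Between the genotypes at P21, the relative log2 differences (cKO minus WT) were 2.42 ± 0.19 for Bex1 and 1.85 ± 0.24 for Tmem171. They were -1.78 ± 0.17 for Csdc2, -1.62 ± 0.32 for Lrtm1, -1.61 ± 0.19 for Igsf1 and -0.69 ± 0.19 for Art1. For Ces1d and Xdh, whose libraries overlapped, they were -0.66 ± 0.36 and -0.32 ± 0.32. In plain-numbered libraries alone the unshifted differences were 2.73 for Bex1, 2.07 for Tmem171, -1.46 for Csdc2, -1.13 for Lrtm1, -1.39 for Igsf1 and -0.36 for Art1, of the same direction as over all libraries. Before the shift of the median gene is taken off, the Xdh difference is -0.11, and it was 0.12 without replicate 64 of P21 cKO and 0.01 without replicate 57 of P21 WT. That of Ces1d is -0.44 unshifted and was 0.04 without replicate 55 of P21 cKO. Of the tested genes, 21.3% passed the limma threshold in this contrast, 2893 with a higher and 262 with a lower level in cKO. The split depended on scaling: with median-ratio scaling it was 592 higher and 789 lower, and with quantile normalization 608 and 642. The 2 higher and 4 lower members kept their direction under both.

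Markers of other cells moved over the same libraries. Their counts are to be read against those of all 14812 tested genes in limma. From P7 WT to P21 WT 9543 of these were lower and 1200 higher. In P21 cKO against P21 WT 2893 were higher and 262 lower. From P7 WT to P21 WT the summed fibroblast markers went from 753 to 1010 TPM down to 431 to 549 TPM, with 6 of 7 markers lower at an adjusted p under 0.05 in limma. With median-ratio scaling or quantile normalization 4 of these 7 were lower and 1 higher. The summed endothelial markers went from 690 to 834 TPM down to 333 to 448 TPM, with 8 of 8 lower, against 4 lower and 1 higher with median-ratio scaling and 6 lower and 1 higher with quantile normalization. The summed macrophage markers went from 61.0 to 70.6 TPM up to 111 to 166 TPM, with 5 of 7 higher, and 7 of 7 under either scaling. In P21 cKO the fibroblast sum was 648 to 770 TPM, with 7 of 7 markers higher than in P21 WT, and the endothelial sum 517 to 571 TPM, with 7 of 8 higher. These counts also depended on scaling: 4 fibroblast markers and 1 endothelial marker were higher with median-ratio scaling, and 5 and 3 with quantile normalization. The 6 atrial markers summed to 287 to 499 TPM in P21 WT and 8355 to 15280 TPM in P21 cKO, where nearly all of it was Nppa, a natriuretic peptide gene that stressed ventricles also express. In bulk tissue fewer cells of a type and less RNA per cell cannot be told apart. The part of these cells in the values of Bex1, Tmem171 and the genes lower in cKO was not tested.

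Some of these markers bear on individual genes. Xdh was 11-fold higher in P21 WT than in P7 WT, where the summed endothelial markers were lower in TPM, and 4 of 8 of these were lower and 1 higher with median-ratio scaling. The part of endothelial cells in the level of Xdh was not tested. For Ces1d, abundant in fat and liver, the fat markers Adipoq and Plin1 averaged 0.0200 and 0.00400 TPM in P7 WT and 0.700 and 0.310 TPM in P21 WT, and Adipoq and Plin1 averaged 1.26 and 0.610 TPM in P21 cKO. The sum of all 8 fat markers was lower at P21 WT (18.1 to 33.2 TPM) than at P7 WT (35.9 to 49.0 TPM), most of it Cidea, and Ucp1 was at 0 in all P21 cKO libraries. The 6 hepatocyte markers summed to at most 2.10 TPM in every library except replicate 2 of P21 WT, which held 14.6 TPM and in which Ces1d, at 29.1 TPM, was within the range of the other P21 WT libraries. The part of fat cells in the level of Ces1d was not tested.

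The first postnatal week took no part in the choice of the genes, apart from sharing the P7 WT libraries with it. From P1 to P7 in WT, 4 of the 8 genes had an adjusted p under 0.05 in limma, 2 higher and 2 lower, against 28.5% of all tested genes. Ces1d is counted among the 8, though it was near the floor at both ages. Lrtm1 rose by 2.19 ± 0.32 on the log2 scale (SE; adjusted p of 0.000175 in limma), a change as large as which 0.338% of tested genes had. Bex1 fell by 1.74 ± 0.19 on the log2 scale (limma adjusted p = 1.6e-05). Xdh fell by 1.25 ± 0.32 on the log2 scale (limma adjusted p = 0.00972). Its call was lost with letter-coded libraries alone, at -1.16 and an adjusted p of 0.0832 in limma.

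Art1 rose by 0.55 ± 0.19 from P1 to P7 (limma adjusted p = 0.0421), close to the threshold. It lost the call in 17 of 28 alternative settings, with adjusted p-values in limma of up to 0.250. Among these were the settings that leave out any 1 of the P1 WT libraries, or any 1 of the P7 WT libraries other than replicate 1, or any 1 of the P21 WT libraries, or replicate 59 of P21 cKO or replicate 82 of P7 cKO. The change without replicate 3 of P7 WT was 0.35 for Art1. Tmem171 changed by 0.56 ± 0.24 (limma adjusted p = 0.0993), and passed in 3 of 28 settings, among them the fit without replicate 55 of P21 cKO (limma adjusted p = 0.0261). The values of Igsf1 and Csdc2 were 0.30 ± 0.19 and 0.17 ± 0.17, with adjusted p-values in limma of 0.257 and 0.491. Ces1d averaged below the pseudocount in both P1 WT and P7 WT, so its change of 0.15 ± 0.36 is given without a p.

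At P7 the cKO libraries played no part in the choice of the genes, but the P7 WT libraries they are compared with did, so these differences are not fully independent of it. None of the 8 genes passed: 0 of them had an adjusted p under 0.05 in limma, against 3 of 14812 genes tested (0.0203%), and 4 of the 8 had an unadjusted p under 0.05, against 494 of the 14812. The log2 differences (cKO minus WT) were -0.64 ± 0.17 (SE) for Igsf1, with a limma adjusted p of 0.705. They were 0.37 ± 0.17 for Bex1, -0.38 ± 0.16 for Csdc2, -0.40 ± 0.18 for Art1 and -0.49 ± 0.30 for Lrtm1. For Tmem171 and Xdh they were 0.22 ± 0.23 and 0.08 ± 0.30. The limma adjusted p of each of these genes other than Igsf1 was 1. Ces1d averaged 0.836 TPM in P7 WT and 0.580 TPM in P7 cKO, below the pseudocount, so its difference of -0.22 ± 0.33 is given without a p. It is counted among the 8, though near the floor in both groups. By libraries, 1 of the 8 (Igsf1) had every cKO library below every WT library, against 2.73% of tested genes, and 0 had every one above, against 1.26%.

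All P7 cKO libraries were plain-numbered, so they were also compared with only the 3 P7 WT libraries of that title style. Against those, Csdc2, Lrtm1, Igsf1 and Art1 (4 of 8) had every cKO library below every WT library, against 4.87% of tested genes, and Bex1 (1 of 8) every one above, against 5.16%. The log2 differences in plain-numbered libraries alone were -0.67 for Lrtm1, -0.45 for Csdc2, -0.48 for Art1, -0.64 for Igsf1 and 0.31 for Bex1. The limma adjusted p was 0.906 for Lrtm1, Csdc2 and Art1, and 1 for Igsf1 and Bex1.

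**Figure D3:**
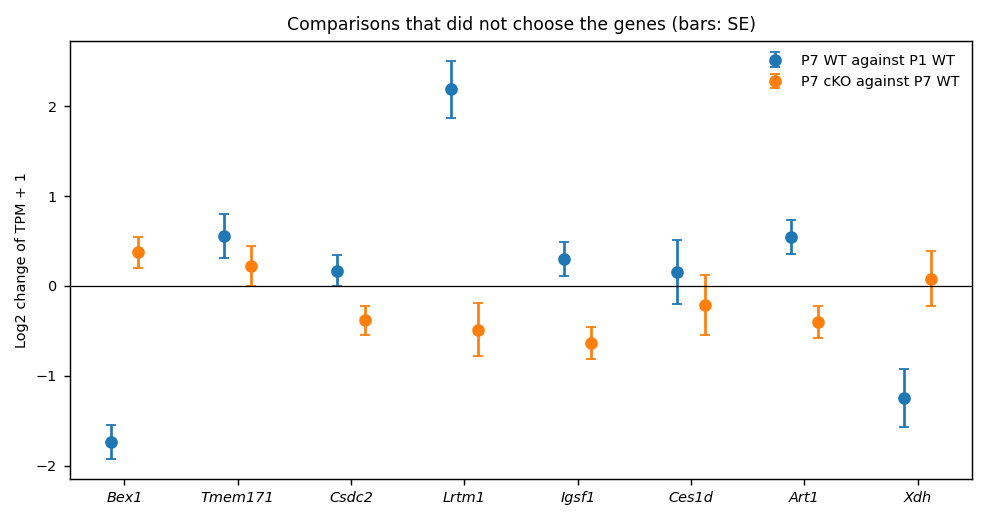
Log2 change of TPM + 1 (y axis) for each gene (x axis) from P1 WT to P7 WT (blue) and from P7 WT to P7 cKO (orange), with bars for the SE. The first week spans -1.74 for Bex1 to 2.19 for Lrtm1, and the knockout differences at P7 lie between -0.64 and 0.37.

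Bex1 lies in a cluster of related genes on the X chromosome, at chrX:136213972-136215513 on the minus strand (mm10, GENCODE M21), with Tceal5 10096 bases and Tceal9 29566 bases away. For this family and those that follow, log2 changes are as fitted, without the shift of the median gene taken off, and for contrasts with P21 the value relative to the median gene is given after them. Of the 11 other BEX and TCEAL genes listed, 9 were tested. Of these, 6 passed from P1 to P7 in WT, 8 from P7 to P21 in WT and 7 from P7 to P21 in cKO (limma adjusted p under 0.05), and all that passed fell. Of all tested genes 28.5%, 72.5% and 48.4% passed in these contrasts, and the counts of every family are to be read against such shares. Of the tested genes that passed, 2174 of 4217, 9543 of 10743 and 5781 of 7168 fell. A fall was thus the usual direction of called genes from P7 to P21. With median-ratio scaling 6, 7 and 6 of the 9 family genes fell. The median relative change of the 9 was -1.61 from P7 to P21 in WT. Bex3 averaged 182 TPM in P1 WT, 88.4 in P7 WT and 11.3 in P21 WT, and fell by 2.86 ± 0.10 on the log2 scale from P7 to P21 (limma adjusted p = 4.59e-12; -2.39 relative). Tceal8 fell by 1.67 ± 0.08 (limma adjusted p = 1.65e-10; -1.19 relative) over the same interval. Bex4 averaged 76.2 TPM in P1 WT and 13.8 in P7 WT, a fall of 2.41 ± 0.21 (limma adjusted p = 3.02e-06).

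Between the genotypes at P21, 2 of the 9 passed, both higher in cKO, against 21.3% of all tested genes, most of them also higher. Tceal7 averaged 0.428 ± 0.346 TPM (SD, n = 4) in P21 WT and 2.88 ± 1.27 TPM (SD, n = 3) in P21 cKO, a log2 difference of 1.55 ± 0.25 (limma adjusted p = 0.000983; 1.33 relative). Tceal9 averaged 22.9 and 33.8 TPM, a difference of 0.60 ± 0.10 (limma adjusted p = 0.00126; 0.38 relative). Both kept the call in every setting tried. Bex3, at 11.3 and 14.1 TPM, and Bex4, at 0.720 and 1.36 TPM, did not pass. The exons of Bex1 share 223 of 1186 bases with Tceal7 on the opposite strand, and 32.8% of the 50-base words of its longest transcript occur in other genes, most of them in Bex4. Whether the counting used strand is not given in the sources used here, so reads of Bex1 and Tceal7 cannot be told apart over that stretch.

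**Figure D4:**
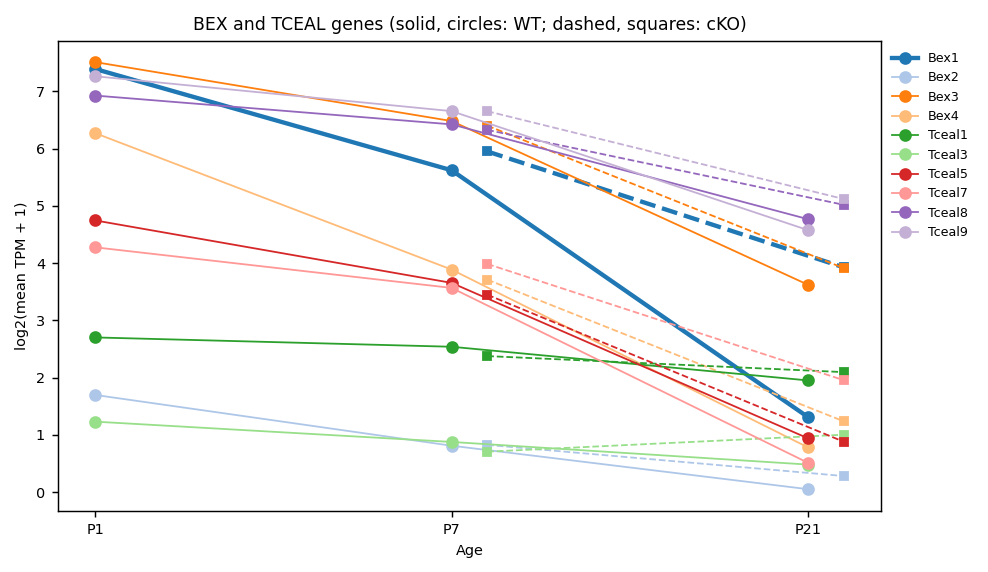
Mean level as log2(mean TPM + 1) (y axis) of BEX and TCEAL genes that reached 1 TPM in some group, by age (x axis), in WT (solid lines, circles) and cKO (dashed lines, squares). Most lines descend from P1 to P21. At P21 the cKO squares that lie above the WT circles include those of Bex1, Bex2, Bex3, Bex4, Tceal7 and Tceal9, and that of Tceal5 lies below.

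Tmem171 lies at chr13:98686235-98694834 on the minus strand, 28569 bases from Fcho2 and 48825 bases from Tmem174. Of its 4 listed neighbours 2 were tested, the endocytosis gene Fcho2 and the nuclear import receptor gene Tnpo1. Both rose in P21 cKO against P21 WT, Tnpo1 by 0.43 ± 0.11 (limma adjusted p = 0.0162; 0.21 relative) and Fcho2 by 0.54 ± 0.16 (limma adjusted p = 0.0294; 0.32 relative), and neither call held with median-ratio scaling or quantile normalization. Fcho2 averaged 14.6 TPM in P21 WT and 18.2 TPM in P21 cKO. Tmem174 was at 0 in every group after P1. On the same scale the difference of Tmem171 was 2.07 ± 0.24 (1.85 relative), larger than both. Tmem171 was chosen by its own values, so this is a description with no test.

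Csdc2 (chr15:81936759-81950941, plus strand) was compared with the other cold shock domain genes. Of 7 listed, 5 were tested. From P7 to P21 in WT 4 passed, all of them lower, but 3 rose and 1 fell with median-ratio scaling. Carhsp1, the closest relative of Csdc2, averaged 35.8 TPM in P7 WT and 12.9 TPM in P21 WT, a fall of 1.40 ± 0.07 (limma adjusted p = 2.76e-10; -0.93 relative) that held in every setting. Between the genotypes at P21, 3 passed, all higher in cKO, whereas 1 passed with median-ratio scaling, and it was lower. Carhsp1 was at 17.5 TPM in P21 cKO, 0.40 ± 0.09 above WT on the log2 scale (limma adjusted p = 0.00796; 0.18 relative), and lost that call in 3 of 28 settings. Csdc2 thus had the opposite sign to Carhsp1 in both contrasts.

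Lrtm1 (chr14:29018208-29033645, plus strand) lies inside Cacna2d3, which runs on the opposite strand, shares 0 exon bases with it and was at most 0.380 TPM in any library. Of 15 other leucine-rich repeat genes 8 were tested; 4 rose and 2 fell from P7 to P21 in WT, and 2 rose and 1 fell in P21 cKO against P21 WT. With median-ratio scaling 5 rose over that interval, and 1 rose and 2 fell between the genotypes. Lrrc2, a mitochondria-linked heart gene, averaged 39.8 TPM in P21 WT and 67.1 TPM in P21 cKO, a rise of 0.72 ± 0.14 (limma adjusted p = 0.00291; 0.51 relative) that held in every setting. Lrrc39, a sarcomere gene, averaged 55.1 and 43.5 TPM, a fall of 0.35 ± 0.10 (limma adjusted p = 0.0218; -0.57 relative), which was lost without replicate 57 of P21 WT and without replicate 64 of P21 cKO.

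Igsf1 (chrX:49782536-49797749, minus strand) was set beside genes of activin and thyroid hormone signalling and other IGSF genes. Of 18 listed 13 were tested; 1 rose and 9 fell from P7 to P21 in WT, and with median-ratio scaling 2 rose and 7 fell. The gene that rose was Thrb, a thyroid hormone receptor, at 0.603 TPM in P1 WT, 1.74 in P7 WT and 4.80 in P21 WT (P7 to P21 log2 change 1.08 ± 0.12, limma adjusted p = 8.04e-07; 1.55 relative). Thra, the other receptor, went from 94.7 to 50.9 TPM, a fall of 0.89 ± 0.11 (limma adjusted p = 3.23e-06; -0.42 relative). Thrb averaged 4.27 TPM in P21 cKO and did not pass between the genotypes.

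Ces1d (chr8:93166068-93197838, minus strand) lies in the Ces1 cluster, 3380 bases from Ces1e. Ces1e averaged 0.253 to 0.363 TPM in the 5 groups and Ces1c at most 0.0525 TPM, so the P21 level was not shared by the adjoining genes. Of 22 other carboxylesterases and lipases only 7 were tested. From P7 to P21 in WT 2 rose and 2 fell, and with median-ratio scaling 5 rose and 1 fell. Lpl, which frees fatty acids from lipoproteins, averaged 413 TPM in P7 WT and 856 TPM in P21 WT, a rise of 1.04 ± 0.10 (limma adjusted p = 1.4e-07; 1.51 relative). Pnpla2, the main triglyceride lipase, rose by 0.64 ± 0.12 (limma adjusted p = 0.000246; 1.11 relative), from 73.8 to 114 TPM, and lost the call in 1 of 29 settings. Mgll, the monoglyceride lipase gene, fell by 0.91 ± 0.07 (limma adjusted p = 2.35e-08; -0.43 relative), from 68.7 to 35.9 TPM.

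Art1 (chr7:102101743-102113933, plus strand) was compared with 9 other ADP-ribosyltransferase, hydrolase and ADP-ribosyl cyclase genes, of which 8 were tested. From P7 to P21 in WT 3 rose and 3 fell, and with median-ratio scaling all 5 that passed rose. Both other Art genes named rose in WT. Art3 averaged 127 TPM in P7 WT and 351 TPM in P21 WT (1.48 ± 0.13, limma adjusted p = 1.02e-07; 1.95 relative). Art5, whose gene overlaps that of Art1 on the opposite strand with 0 shared exon bases, averaged 1.18 and 7.19 TPM (1.89 ± 0.16, limma adjusted p = 4.16e-08; 2.36 relative). In the knockout over the same interval Art3 rose by 1.30 ± 0.16 (limma adjusted p = 1.01e-05; 1.54 relative) and Art5 by 1.70 ± 0.19 (limma adjusted p = 3.69e-06; 1.94 relative). From P1 to P7 Art3 fell by 0.98 ± 0.16 (limma adjusted p = 0.000523), from 236 TPM. The exons of Art1 share 1025 of 2809 bases with Chrna10 on the opposite strand, which was at most 0.160 TPM in any library.

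In the longest transcript of Xdh (chr17:73883895-73950196, minus strand), 892 of 7726 50-base words (11.5%) occur in other genes, 278 of them in Ppp2r5a. Xdh was compared with 20 other genes of purine breakdown and salvage, of which 15 were tested. From P7 to P21 in WT 2 rose and 6 fell, and with median-ratio scaling 8 rose and 5 fell. Aox1, the molybdenum hydroxylase most akin to Xdh, averaged 0.904 TPM in P7 WT and 4.50 TPM in P21 WT, a rise of 1.49 ± 0.14 (limma adjusted p = 1.22e-07; 1.96 relative). Hprt, a salvage enzyme gene, fell by 0.77 ± 0.06 (limma adjusted p = 1.86e-08; -0.30 relative), from 76.1 to 44.1 TPM. Nt5c2, which dephosphorylates IMP, fell by 1.09 ± 0.08 (limma adjusted p = 1.14e-08; -0.62 relative). Between the genotypes at P21, 4 rose and 1 fell, against 1 and 1 with median-ratio scaling. Nt5e, which makes adenosine outside the cell, averaged 6.25 TPM in P21 WT and 11.4 TPM in P21 cKO, a rise of 0.77 ± 0.13 (limma adjusted p = 0.00158; 0.55 relative) that held in every setting.

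The sequence before the start site was read for the members that RefSeq's promoter table (GRCm38.p6) holds, which were Bex1, Lrtm1, Igsf1 and Art1, 4 of the 8. Shown are 250 bases ending just before the start, 5′ to 3′ on the gene's own strand, for the gene furthest below P7 at P21 (Bex1), a gene higher at P21 in WT and lower in the knockout (Lrtm1), and a gene higher at P21 in both genotypes (Art1). Capitals mark matches to the motifs searched.
Art1: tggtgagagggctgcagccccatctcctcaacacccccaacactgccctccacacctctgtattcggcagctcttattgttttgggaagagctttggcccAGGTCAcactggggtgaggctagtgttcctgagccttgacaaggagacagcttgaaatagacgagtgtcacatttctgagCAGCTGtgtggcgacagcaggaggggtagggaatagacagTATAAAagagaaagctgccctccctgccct
Lrtm1: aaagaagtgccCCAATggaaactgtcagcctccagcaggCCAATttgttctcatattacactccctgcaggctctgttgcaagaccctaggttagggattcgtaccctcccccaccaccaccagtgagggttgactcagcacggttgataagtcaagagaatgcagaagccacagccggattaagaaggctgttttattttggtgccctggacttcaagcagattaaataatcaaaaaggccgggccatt
Bex1: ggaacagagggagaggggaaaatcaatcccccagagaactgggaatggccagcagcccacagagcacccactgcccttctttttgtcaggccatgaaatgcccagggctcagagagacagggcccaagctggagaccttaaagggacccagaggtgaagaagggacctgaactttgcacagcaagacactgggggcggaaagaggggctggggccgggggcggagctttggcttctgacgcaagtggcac
The window is chr7:102101493-102101742 (plus strand) for Art1, chr14:29017958-29018207 (plus strand) for Lrtm1 and chrX:136215514-136215763 (minus strand) for Bex1. The motifs, searched on both strands, were those of the TATA-binding protein, of NF-Y, of the myogenic factors, of nuclear receptors, of the GATA and FOXO factors, of MEF2 and of SRF. No letters were shared between matches.

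Positions are counted back from the start site, the base before it being -1. Art1 had 3 matches: TATAAA at -30 to -25, CAGCTG at -70 to -65 and AGGTCA at -150 to -145. Lrtm1 had CCAAT at -239 to -235 and at -211 to -207. Bex1 and Igsf1 held none of the motifs. Of 32851 promoters of this length in the table, 12.4% hold the TATA box (TATAAA) and 33.8% the NF-Y box (CCAAT). The myogenic E-box (CAGCTG) is in 13% and the nuclear receptor motif (AGGTCA) in 14%. The site of GATA factors (AGATAA) is in 9.99%, the FOXO site (GTAAACA) in 3.17%, the MEF2 site in 2.92% and the CArG box of SRF in 1.47%. The GC content was 54.4% for Art1, 49.2% for Lrtm1, 59.6% for Bex1 and 67.2% for Igsf1, against a median of 52.4% over the table. A match is a description of letters and was not tested for function.

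The genes most like each member over the 18 libraries were found by Pearson correlation of log2(TPM + 1) among 9778 candidates. The libraries share their age and genotype groups, so these values describe likeness of pattern only. Art1 and Ces1d were alike (r = 0.973), and Mgl2, a lectin gene of macrophages, led the list of both (r = 0.982 and 0.978), with group means of 0.432 TPM in P7 WT and 8.18 TPM in P21 WT. After Mgl2 the genes most like Art1 were the peroxisomal phytanate enzyme gene Phyh (r = 0.979) and the lipid phosphatase gene Lpin1 (r = 0.976). Xdh was most like Art3 (r = 0.963), the peroxisomal membrane gene Pxmp2 (r = 0.958) and Klf9 (r = 0.953), a transcription factor gene induced by thyroid hormone and glucocorticoids.

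Bex1 was most like genes of protein synthesis, Naca (r = 0.993) and Eef1a1 (r = 0.982), with the septin gene Septin6 (r = 0.985) between them. Eef1a1, a translation elongation factor gene, averaged 2837 TPM in P7 WT, 696 TPM in P21 WT and 1305 TPM in P21 cKO. Csdc2 was most like the proteasome activator gene Psme4 (r = 0.974), Ogdhl (r = 0.973) and the potassium channel gene Kcnd2 (r = 0.973), a carrier of the adult transient outward current. Ogdhl averaged 5.22 TPM in P7 WT, 53.0 TPM in P21 WT and 15.1 TPM in P21 cKO. Lrtm1 was most like Fitm2 (r = 0.977), which packages lipid droplets, the nuclear receptor gene Rxrg (r = 0.969) and the kinase gene Dmpk (r = 0.968). The best values were lower for Igsf1, with Fhl2 (r = 0.898), Rom1 (r = 0.867) and Slc36a2 (r = 0.844), and for Tmem171, with Plod1 (r = 0.909), Akt2 (r = 0.903) and Ctdnep1 (r = 0.897). Among the members themselves, Bex1 and Csdc2 ran most nearly opposite (r = -0.954).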

How the data were processed

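RNA-seq of mouse heart was deposited by the authors as TPM, with a single value per gene and library; no counts were used, so sequencing depth is unknown here. Per the submitters' processing notes, TopHat2 2.0.14, Cufflinks 2.2.1 and mm10 were used. The tool that made the TPM values, its annotation, the strand setting and the read length are not given in the sources used here. Of 9 further value columns, 7 named for groups and 2 for no sample of the series, none was used, and 1 of 19 libraries, P21 library 63, was left out of all comparisons because its genotype label and its title disagree.

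Genes that reached 1 TPM in 3 or more libraries (14812) were fitted as log2(TPM + 1), with a pseudocount of 1, in limma 3.58.1 (R 4.3.3, lmFit and eBayes with trend; version 1.17.8 of data.table) with terms for group and title style over 18 libraries. Adding the pseudocount understates changes of low genes. P-values were two-sided and adjusted with the Benjamini-Hochberg method over all tested genes within each comparison, with 0.05 as the threshold. The script was tested on simulated data. The 8 genes, the gene lists and the markers were chosen with earlier results of these data known. Named were the 8 genes, up to 3 genes with the smallest passing p per list and comparison, the 3 genes most correlated with each member among those averaging 5 TPM or more in some group, and neighbours; not all are printed. Positions come from GENCODE M21 and promoters from RefSeq. Alternatives were other scalings, filters, pseudocounts and weights, each title style alone, and leaving out each library.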

Additional observations from a re-analysis of the deposited data

Results flagged for a closer look

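In groups of 4 or 5 libraries, the gap from the lowest or highest value to the nearest other library was divided by the range of the group (Dixon's ratio). Of 16 groups examined over the 8 genes, 2 stood out, both in replicate 1 of P7 WT, a letter-coded library. Art1 was at 3.34 TPM there, against 7.18 to 7.71 TPM in the other P7 WT libraries (ratio 0.879). Csdc2 was at 2.47 TPM there, against 3.47 to 3.74 TPM (ratio 0.787). Chance alone marks about 1 in 20 such groups.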

How the results depend on the processing

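The number of genes called in limma moved by over 1.5 times in some settings. For P21 cKO against P21 WT, with 3155 genes, it was 5702 with array quality weights, 1381 with median-ratio scaling, 1250 with quantile normalization and 1535 with plain-numbered libraries only. For P7 WT against P1 WT, with 4217, it was 2428 with letter-coded libraries only. For P7 cKO against P7 WT, with 3, it was 12 with array quality weights, 9 with no filter, and 5 each with no title style, with plain-numbered libraries only and without mitochondrial and haemoglobin genes. From P7 to P21, median-ratio scaling gave 4002 higher and 4062 lower in WT (main 1200 and 9543) and 2893 and 2997 in cKO (main 1387 and 5781), and quantile normalization 3964 and 4042 in WT and 3027 and 3052 in cKO.

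Leaving out each library in turn gave 3093 to 4523 genes for P7 WT against P1 WT, 2 to 7 for P7 cKO against P7 WT, 10061 to 10914 for P21 WT against P7 WT, 6113 to 7623 for P21 cKO against P7 cKO, and for P21 cKO against P21 WT from 1469 (without P21 WT replicate 57) to 5055 (without P21 WT replicate 60). The cause was not tested.

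Sign changes among the 8 genes came only from leaving out 1 library. Leaving out each in turn, the Ces1d log2 change, P21 cKO against P21 WT, ran from -0.74 (without P21 cKO replicate 59) to 0.042 (without P21 cKO replicate 55), and the Ces1d log2 change, P7 cKO against P7 WT, from -0.44 (without P7 WT replicate 72) to 0.035 (without P7 WT replicate 77). The Xdh log2 change, P21 cKO against P21 WT, ran from -0.41 (without P21 cKO replicate 55) to 0.12 (without P21 cKO replicate 64), with 0.01 without P21 WT replicate 57. The Xdh log2 change, P7 cKO against P7 WT, ran from -0.036 (without P7 cKO replicate 69) to 0.18 (without P7 cKO replicate 82), with -0.03 without P7 WT replicate 77. Letter-coded libraries of different ages share numbers. Same-numbered libraries had correlations of their deviations of -0.00518, 0.0127, -0.117, -0.0791 and 0.165, so the numbers were not taken as pairs. With a replicate block the counts were 3876 (P7 WT against P1 WT), 2 (P7 cKO against P7 WT), 10387 (P21 WT against P7 WT), 2734 (P21 cKO against P21 WT) and 7152 (P21 cKO against P7 cKO), and no call of the 8 genes changed.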

Other observations

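P21 library 63, whose genotype label reads cKO and whose title lacks the KO mark of the other knockout libraries, was in no group. It held 2.01 TPM of Bex1, 2.65 TPM of Tmem171, 8.65 TPM of Igsf1 and 109 TPM of Art1, each within the range of the 4 P21 WT libraries. Lrtm1, at 70.4 TPM, and Ces1d, at 48.5 TPM, were above that range. Csdc2, at 23.9 TPM, and Xdh, at 12.2 TPM, were below it, Csdc2 above the highest P21 cKO library and Xdh below the lowest. No group was assigned from these values.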
